A study of Homo sapiens with 2 samples.

Results

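The subject here is the Notch signalling genes JAG1, NOTCH1, NOTCH2, NOTCH3 and HES1 in a map of chromatin bound by active YAP. Each gene was represented by a window of hg19 around it, and a peak belonged to a gene's locus if its summit lay inside that window. Across the 5 windows, which together span 1.00 Mb, 1 of the 9393 peaks in the authors' list was found. It lay in the JAG1 window, and the windows of NOTCH1, NOTCH2, NOTCH3 and HES1 held 0 peaks. For comparison, stretches as long as these windows, laid end to end over all chromosomes, held at least 1 peak in 30.2 to 47.4% of cases. The name of the set therefore describes the genes examined, and in this list only the JAG1 window among them carries a called peak.

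The list came from 1 ChIP-seq library of MCF10A cells expressing Flag-YAP-5SA, precipitated with Flag-M2 beads. The other sample was 1 library of input DNA from MCF10A chromatin, whose reads were not analysed here. MCF10A is an epithelial line from the human breast. The labels call it non-transformed in one field and a breast cancer line in another. Both samples were grown with horse serum, EGF, insulin, hydrocortisone and cholera toxin. YAP is a co-activator that reaches DNA mainly through TEAD factors, and the 5SA form has serines changed to alanine so that the Hippo kinases no longer restrain it. What was mapped is thus an expressed, tagged, active mutant and not the cells' own YAP. No library without the tag, and no replicate, was analysed here. No test over samples was possible, and the read depth is unknown.

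Notch receptors are single-pass membrane proteins that are cut when a ligand on a neighbouring cell binds them. The released intracellular part enters the nucleus and joins the DNA-binding protein RBPJ and a Mastermind co-activator, and target genes such as HES1 are switched on. JAG1 encodes a ligand of the Jagged family, NOTCH1, NOTCH2 and NOTCH3 encode receptors, and HES1 encodes a basic helix-loop-helix repressor. In the mammary epithelium Notch signalling is known for its part in the choice between basal and luminal fates. JAG1 has been described as a gene that YAP can activate in several tissues.

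The promoters of the ligand and of the target gene are shown because they mark the ends of the pathway, JAG1 as the gene whose window held the peak and HES1 as a gene whose window held none. Both are the 250 bases upstream of the gene's start, taken from RefSeq (GRCh38.p14) and written 5′ to 3′ on the gene's own strand. Capitals mark the letters TGGGAA or TTCCCA, the core that RBPJ recognises. HES1 lies at chr3:194135898-194136147 on the plus strand and JAG1 at chr20:10674000-10674249 on the minus strand.
HES1: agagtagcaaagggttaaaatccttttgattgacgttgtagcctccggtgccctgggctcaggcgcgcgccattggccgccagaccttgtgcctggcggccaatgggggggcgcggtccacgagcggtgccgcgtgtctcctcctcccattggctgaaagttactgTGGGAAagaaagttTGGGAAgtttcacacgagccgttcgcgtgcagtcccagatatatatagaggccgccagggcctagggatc
JAG1: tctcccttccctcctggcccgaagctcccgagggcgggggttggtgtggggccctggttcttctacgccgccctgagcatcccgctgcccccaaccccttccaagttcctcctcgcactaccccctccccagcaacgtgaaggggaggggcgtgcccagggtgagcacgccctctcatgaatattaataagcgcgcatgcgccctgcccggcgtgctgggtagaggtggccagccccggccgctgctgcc
These positions belong to another build than the peaks and windows, so they were not set against either.

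All 5 genes had a promoter window of 300 bases in the RefSeq table, 250 bases before the start and 50 after it. The RBPJ letters were found on either strand in 1 of the 5, HES1, which held them in tandem, beginning 84 and 70 bases upstream of the start. Of all 35116 RefSeq promoter windows of this length, 24.0% held the letters at least once and 3.80% held them 2 times or more. The TEAD core, GGAATG or CATTCC on either strand, was in 0 of the 5 windows and in 14.0% of all windows. The AP-1 letters TGANTCA were in 0 of the 5 and in 7.71% of all windows. The TEAD and RBPJ letters can share bases, which did not occur in these 5 windows. Of 37 other Notch pathway genes, 30 were in the table, with 37 promoter windows between them. Among those windows 10 held RBPJ letters, 3 TEAD letters and 2 AP-1 letters, or 27.0%, 8.11% and 5.41%. The RBPJ letters occurred 2 times or more in 4 of these 37 windows (10.8%), those of HES5, HEY2 and HEYL and a single window of RBPJ, which had several. Each of these 4 held both TTCCCA and TGGGAA, whereas HES1 held TGGGAA in both places. A match of letters is a description of the sequence and not a bound site.

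The ligand gene JAG1 had the peak. Its interval ran from 10640731 to 10641698 on chromosome 20 (chr20:10640731-10641698, hg19), with the summit at 10640992, which is 5.99 kb beyond the middle of the window and over 100 kb from both of its edges. The height was 36. Height is the authors' score at the summit, a whole number with no stated unit, and is used here only to rank peaks within the list. The interval was 968 bp wide, and its summit lay 262 bp from the lower end, so the interval was longer on the side of higher coordinates. Whether the summit falls in an exon, an intron or the promoter of JAG1 was not determined, as no hg19 annotation was used.

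Within the list the JAG1 peak was both tall and wide. Its height exceeded 86.7% of the 9393 peaks, whose median was 24 with quartiles of 19 and 30. Another 1113 peaks were taller, and 814, or 8.67% of the list, had a height of 40 or more, which the JAG1 peak did not reach. Its width exceeded 93.9% of peaks, against a median width of 611 bp with quartiles of 520 and 709 bp. Counting itself, 134 peaks (1.43%) were at least as tall and at least as wide.

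Set against its own chromosome, the JAG1 peak stood less far up the ranking. With its height of 36 it was higher than 76.3% of the 355 peaks of chromosome 20, whose median height was 27, and 72 of them were taller. With its 968 bp it was wider than 88.2% of them, against a median width of 684 bp. No correction of heights for the copy number of a chromosome was made, so ranks on chromosome 20 and in the whole list need not measure the same thing.

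**Figure D1:**
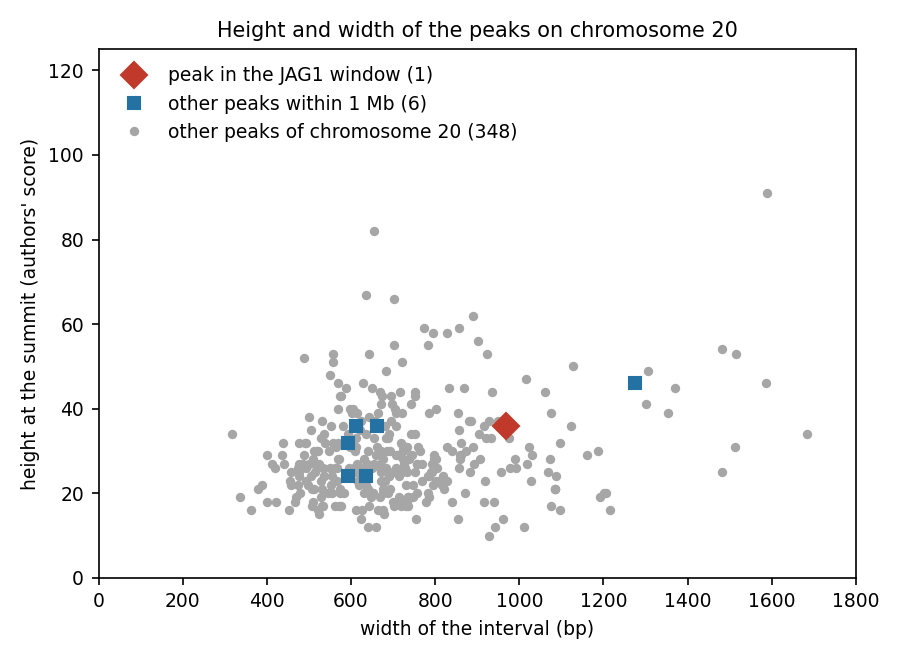
Height at the summit (authors' score, no unit) against interval width (bp) for the 355 peaks of chromosome 20; the red diamond is the peak in the JAG1 window, blue squares are the 6 other peaks with a summit within 1 Mb of it, and grey points are the rest. The JAG1 peak, at a height of 36 and a width of 968 bp, lies to the right of most points, and 1 of its 6 neighbours, at 46 and 1275 bp, is both taller and wider.

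The JAG1 peak stood alone rather than in a group. The nearest other summit was 172 kb away, whereas the median distance to the nearest summit over the list was 55.8 kb, and 76.7% of peaks had a closer neighbour than the JAG1 peak had. On the side of lower coordinates the next peak was 353 kb away. It ran from 10286908 to 10288182, was 1275 bp wide and had a height of 46, the tallest within 1 Mb. That peak closed a run of 4, the others having heights of 36, 32 and 24. On the side of higher coordinates the next peak, from 10812671 to 10813263, had a height of 24 and a width of 593 bp. It was followed by a peak of height 36 at 516 kb from the middle of the window. In all, 6 other peaks lay within 1 Mb of the JAG1 summit. Their heights ranged between 24 and 46, and their median was 34. The JAG1 peak was lower than 1 of them and equal to 2. In the GRCh38 gene order the protein-coding neighbours of JAG1 are SLX4IP and BTBD3. Whether any of these peaks belongs to either gene was not examined.

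**Figure D2:**
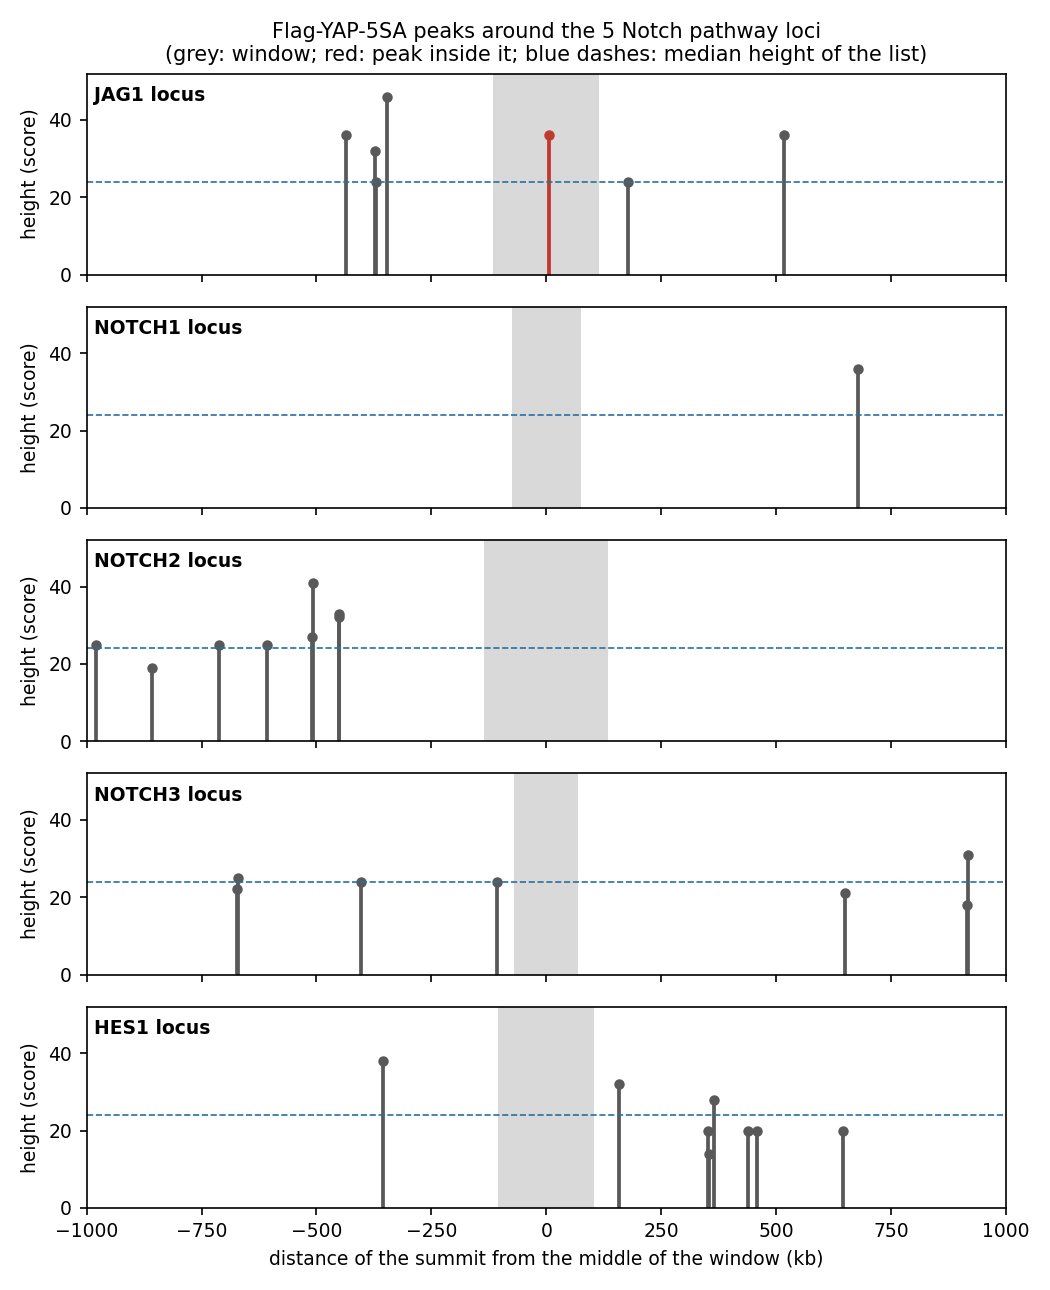
Each panel shows 1 locus, with the distance of each summit from the middle of the window on the x axis (kb) and its height (authors' score, no unit) on the y axis; the grey band is the window, a red line is a peak inside it, grey lines are peaks outside, and the dashed line is the median height of the list, 24. The JAG1 window holds a peak of height 36, and the other windows are empty, with the nearest summit 159 kb from the middle at HES1, 106 kb at NOTCH3, 450 kb at NOTCH2 and 678 kb at NOTCH1.

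The receptor genes had no peak in their windows. Around NOTCH1, on chromosome 9, the nearest summit on the side of lower coordinates lay 1786 kb outside the window, with a height of 25. On the other side a peak of height 36, from 140092373 to 140093034, lay 603 kb outside. The stretch between these summits measured 2.54 Mb and was the 4th longest of the 365 between neighbouring summits of chromosome 9, whose median was 148 kb. Stretches of that length or longer made up 30.5% of the chromosome's span of 140 Mb, most of it in a single stretch of 32.6 Mb. The window lies near the end of the chromosome's list, with 2 peaks beyond it.

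NOTCH2 lay in the longest summit-free stretch of chromosome 1, which measured 23.9 Mb. The last summit before the window was 315 kb outside it, with a height of 32 and an interval from 120084839 to 120085644. The next on the other side was 23338 kb outside, with a height of 25. Within 1 Mb of the window there were 8 peaks, all on the side of lower coordinates. Their heights spanned 19 to 41, with 26 as the median. These included 2 close pairs, in which the intervals were 210 and 289 bp apart, with heights of 27 and 41 in one and 33 and 32 in the other. The stretch holds the centromere of chromosome 1. NOTCH2 also has near-identical partial copies, the NOTCH2NL genes, on the same chromosome. The handling of reads that map to several places is not given in the sources used here, and its part in the empty window was not tested.

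NOTCH3, on chromosome 19, had the peak closest to the edge of an empty window. That peak, from 15183659 to 15184226, had its summit 36.1 kb outside the window and 106 kb from its middle, with a height of 24, equal to the list's median, and a width of 568 bp. On the other side the next summit was 580 kb outside, with a height of 21 and a width of 429 bp. Within 1 Mb there were 8 peaks, 4 on each side, the lowest of height 18, the tallest of 31 and the median 23. The summit-free stretch over NOTCH3 measured 756 kb, which 19 of the 223 stretches on chromosome 19 reached, itself included. Those 19 made up 47.1% of the chromosome's span. In the GRCh38 gene order NOTCH3 has HACL2 and EPHX3 as its protein-coding neighbours.

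HES1, the target gene, likewise had no peak in its window on chromosome 3. The flanking peaks were both above the list's median. The peak on the side of lower coordinates, from 193500004 to 193500651, had a height of 38 and lay 249.7 kb outside the window. The peak on the other side, from 194014030 to 194014812, had a height of 32 and lay 54.4 kb outside. Behind it came 6 more within 1 Mb, with heights of 20, 14, 28, 20, 20 and 20, so all 6 were lower than either flanking peak. The stretch between the flanking summits measured 514 kb, and 19.5% of the 631 stretches on chromosome 3 were at least as long. Together these made up 62.0% of the chromosome's span. The promoter with the tandem RBPJ letters printed above belongs to this gene, and no peak was called in the 210 kb window given for HES1. The position of the promoter was not set against the peaks, and no link between the letters and the empty window was tested.

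An empty window of this size was common in the list. When each chromosome was divided end to end into tiles as long as a window, from its first summit to its last, a tile of 230 kb, the length of the JAG1 window, held at least 1 summit in 59.9% of cases on chromosome 20 and in 42.6% over all chromosomes. For the 150 kb of NOTCH1 the shares were 27.1% on chromosome 9 and 31.9% over all chromosomes. For the 270 kb of NOTCH2 they were 54.5% on chromosome 1 and 47.4% over all. For the 140 kb of NOTCH3 they were 32.0% on chromosome 19 and 30.2% over all. For the 210 kb of HES1 they were 42.0% on chromosome 3 and 40.1% over all.

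With a peak in 1 of 5 windows, 20% of the loci were occupied, and the tile shares averaged 43.1% on the loci's own chromosomes and 38.4% over all chromosomes. The count depended on the window limits. With each window widened by 50 kb on both sides, 2 of 5 loci, or 40%, held a peak, since NOTCH3 then gained one. The tile shares belong to the given window lengths and were not computed for the widened ones, so the 40% cannot be set against them. Longer tiles held a summit more often, over all chromosomes 30.2% of them at 140 kb and 47.4% at 270 kb. No test was made of the difference between loci and tiles at the given lengths. A single locus changes the share of loci by 20 points, so nothing particular to Notch genes is read from that difference. A window with no called peak is one in which nothing passed the authors' threshold, and it does not show that YAP-5SA was absent.

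**Figure D3:**
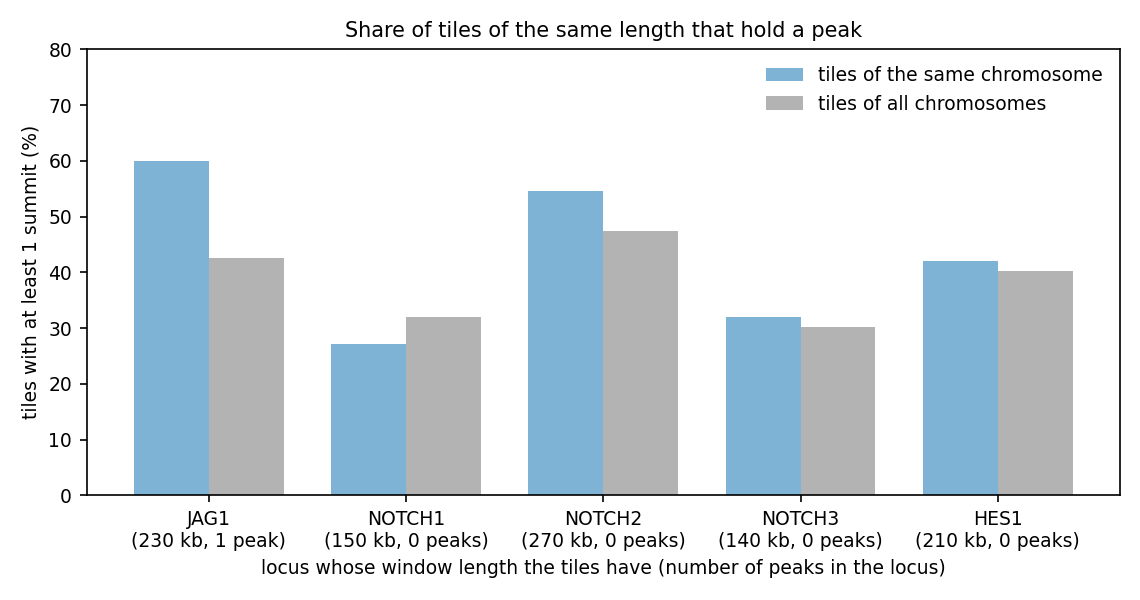
Percent of tiles holding at least 1 summit (y axis), for tiles as long as each of the 5 windows (x axis, with window length and number of peaks in the locus); blue bars are tiles of the locus's own chromosome and grey bars are tiles of all chromosomes. Shares run from 27.1 to 59.9%, and the JAG1 window, the only one of the 5 with a peak, is also the one whose chromosome has the highest share.

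Ordered by peaks per Mb of window, JAG1 had 4.35 and the 4 other loci 0. The density of the whole chromosome, without its longest summit-free stretch, was 6.07 per Mb for chromosome 20, 3.41 for chromosome 9, 4.50 for chromosome 1, 4.28 for chromosome 19 and 3.32 for chromosome 3. The NOTCH2 window lies inside the stretch left out on chromosome 1, where the density with that stretch included was 4.06 per Mb. In the 1 Mb on either side of the window, density was 3.0 per Mb around JAG1, 0.5 around NOTCH1 and 4.0 around each of NOTCH2, NOTCH3 and HES1. The order of these values rests on the 1 Mb limit, because 4 further peaks lay just past it at JAG1, between 1001 and 1084 kb from the edge of the window. The equal values of 4.0 also average unlike sides. NOTCH2 had 8 peaks on the side of lower coordinates and 0 on the other, which lies in the summit-free stretch. HES1 had 1 and 7, and NOTCH3 had 4 and 4. Median heights in those flanks were 34 around JAG1, 26 around NOTCH2, 23 around NOTCH3 and 20 around HES1, and the single flanking peak at NOTCH1 had a height of 36.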

How the data were processed

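Per the labels' protocols, formaldehyde-fixed chromatin was sonicated, Flag-bound fragments were collected, and ChIP and input libraries were sequenced. Alignment tool BWA 0.6.1, peak caller MACS and build hg19 come from the submitters' processing notes. For MACS, version, threshold and control were not given in the sources. A summit track, with a score deposited by the authors, and an interval track make up the list, per the file headers. Both have 9393 lines, joined by order, and every summit lay inside its interval. Other values in the file are positions. Starts are 1-based, and summits are as deposited.

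Windows were those of the rule for each gene. The members, windows and gene lists were chosen with earlier results of these data known. Motif searches in peaks and placement of the 37 other pathway genes need hg19 and were not run. The text names the 5 genes, their peaks and the nearest peaks outside. The counting was tested on simulated data. Work used Python 3.11.15, numpy 2.4.6, pandas 2.3.3 and matplotlib 3.10.9. RefSeq tables are of GRCh38.p14.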

Additional observations from a re-analysis of the deposited data

How the results depend on the processing

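No paired analysis was possible because each group has a single library. For the same reason no replicate could be left out. Over 5 alternatives, 32 of 35 recomputed values stayed the same by the limits used, which were a factor of 1.5 for counts and densities and no change at all for the median height: peaks higher than the list's median only, any base of the interval inside the window, windows narrowed by 20 kb on each side, windows widened by 50 kb on each side, and close intervals joined into single sites. The other 3 came from the widened windows, which took in the peak beside NOTCH3: the 5 loci then held 2 peaks of median height 30, and the NOTCH3 locus had 4.17 peaks per Mb, while JAG1 had 3.03, against 4.35 with the given window and 5.26 with the narrowed one. The JAG1 peak was kept by all 5. Its height of 36, 109 kb to the nearer window edge and 172 kb to the nearest summit fixed this in advance. Keeping only higher peaks, narrowing windows or joining intervals could not put a summit into an empty window. The count of 32 therefore includes values that could not have changed. Leaving the longest summit-free stretch of each chromosome out of the tiles, an alternative chosen after seeing the data, raised the 10 tile shares by 1.02 to 1.30 times. The motif alternatives were not run, for want of hg19. The single library and its unknown depth limit every value.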
